A study of Homo sapiens with 6 samples.

Results

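The MYC network is a group of basic helix-loop-helix leucine zipper transcription factors that share the partners MAX and MLX. Its 10 genes considered here were MYC, MAX, MXD1, MXI1, MXD3, MXD4, MNT, MGA, MLX and MLXIP. They were taken as every probe set whose platform annotation carries the gene's symbol, which gave 1 probe set for each of 9 genes, among 21448 probe sets of the array and 17687 genes with a named one. MXD4 was not analysed here. The group was put together with the results of this comparison known, in which MXI1 stood out, so the differences of the members are given as a description and without a test.

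The cells were HS578T, a line from a human breast carcinoma that looks mesenchymal in culture. They had been stably transfected either with pcDNA 3 carrying cloned EP300 cDNA (called EP300 here) or with empty pcDNA 3 (control). EP300 encodes a lysine acetyltransferase and transcriptional co-activator. Each condition was represented by 3 cultures of a G418-selected pool of clones, all grown in low-glucose medium with serum, insulin and G418, and each culture was hybridised to its own array. Whether they trace back to more than 1 transfection is not stated, so the spread between cultures may not include that between transfections. The question was how the transcriptome with the EP300 vector compares with that of the empty vector. The EP300 transcript, a check on the labels, was not analysed here.

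MYC binds the E-box CACGTG as a heterodimer with MAX and activates genes of ribosome synthesis, metabolism and growth. The MXD proteins, MXI1 and MNT compete with MYC for MAX and bring SIN3 and histone deacetylases to the same sites, and MGA pairs with MAX within a Polycomb complex. MLX is a second shared partner, which pairs with the glucose-responsive factor MLXIP (MondoA) and with some of the MXD proteins and MNT. In breast carcinoma MYC is known as an oncogene, while the proteins that compete with it for MAX are linked to growth arrest and differentiation.

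Values are log2 probe set values, and a difference is the EP300 mean minus the control mean with limma's moderated standard error (SE). Values were distributed alike on the 6 arrays: medians ran from 4.46 to 4.50, lower quartiles from 3.47 to 3.50 and upper quartiles from 6.36 to 6.41. Array pairs had Pearson correlations of 0.978 to 0.980 within the EP300 group, 0.979 to 0.981 within the control group and 0.977 to 0.981 between the groups. For markers fixed for cell types, the mean over the 6 arrays was compared with the lowest array median. It lay below that median for 0 of 10 mesenchymal genes, against 7 of 10 epithelial, 6 of 9 leukocyte and 7 of 8 endothelial genes. The mesenchymal gene TWIST1 lay close to that median, with means of 4.52 in EP300 and 4.44 in control cultures. The mean level of the mesenchymal list was 13.43 to 13.61 on the EP300 arrays and 13.72 to 13.75 on the control arrays. It was lower on each EP300 array than on each control array. Its genes did not all go this way. THY1 differed most (-0.75 ± 0.20 SE, limma adjusted p = 0.735), and VIM read the same on every array. Higher were 2 genes, among them AXL with separated groups (0.40 ± 0.21 SE, limma adjusted p = 0.797). The mean level of the epithelial list was 4.55 to 4.73 on the EP300 arrays and 4.55 to 4.67 on the control arrays, with overlap. Within it KRT18 differed by -1.11 ± 0.23 SE with separated groups (limma adjusted p = 0.592), while 7 of the 10 genes were higher. How far the difference in the mesenchymal mean bears on the results that follow was not tested.

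MXI1 was the member that differed most between the groups. It encodes a repressor of the MXD family that binds MAX, and it is known as a gene induced in hypoxia through HIF and by FOXO3. The MXI1 probe set read 7.48, 7.74 and 7.05 on the EP300 arrays, against 8.88, 8.66 and 8.82 on the control arrays. Every EP300 array lay below every control array, and the gap between the highest EP300 and the lowest control value exceeded the range within either group. The means were 7.42 ± 0.35 in EP300 cultures and 8.79 ± 0.12 in control cultures (SD, n = 3 each), a difference of -1.37 ± 0.24 SE, or 2.58-fold lower with the EP300 vector. Of all probe sets, 3 were lower by more, and 0.0699% differed by more in either direction. All 6 MXI1 values lay above the upper quartile of their arrays. The groups were separated for 1 of 9 members in the lower direction and for 0 in the higher, where 5.91% and 6.30% of all probe sets were separated; as the members were chosen from this comparison, nothing is read from that count.

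RefSeq lists 3 starts for MXI1, and the array summarises the gene in 1 probe set, so the values do not show which start the transcripts came from. The upstream sequences of the second and the third start are shown because they hold the letters bound by the known regulators of MXI1 (RefSeq, GRCh38.p14, both on the plus strand). Capitals mark the forkhead (FOXO) motif GTAAACA and the HIF core motifs ACGTG and GCGTG, each searched on both strands in windows of 250 bases before to 50 bases after a start.
MXI1 start 2, chr10:110209981-110210230: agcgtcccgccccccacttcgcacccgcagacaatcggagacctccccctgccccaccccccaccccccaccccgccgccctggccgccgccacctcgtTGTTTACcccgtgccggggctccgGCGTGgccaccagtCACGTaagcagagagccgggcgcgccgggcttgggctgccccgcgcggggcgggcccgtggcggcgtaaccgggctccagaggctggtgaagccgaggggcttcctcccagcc
MXI1 start 3, chr10:110225746-110226000: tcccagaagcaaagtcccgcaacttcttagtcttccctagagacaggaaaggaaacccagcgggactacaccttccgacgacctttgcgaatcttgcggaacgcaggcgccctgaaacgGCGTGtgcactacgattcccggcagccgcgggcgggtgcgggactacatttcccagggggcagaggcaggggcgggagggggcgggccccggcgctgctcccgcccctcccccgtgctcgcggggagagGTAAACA
At the second start the FOXO motif begins 151 bases upstream, as its reverse complement, and is followed by HIF core motifs that begin 127 and 113 bases upstream. At the third start a HIF core motif begins 131 bases upstream and the FOXO motif 2 bases upstream, so that it runs across the start. A further HIF core motif begins 8 bases downstream of that start, past the end of the sequence shown. The window of the first start held neither motif, and the E-box CACGTG was in none of the 3 windows. Over 35116 promoter windows of the same length, 3.42% held GTAAACA, 21.4% ACGTG, 36.5% GCGTG and 7.26% CACGTG, the last of which contains ACGTG on both strands. A match describes the letters only and does not show that a factor binds there.

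Among the other repressors that pair with MAX, MXD1 and MXD3 were measured near the same level in both groups. MXD1, a repressor that appears as cells differentiate, read 5.40, 5.92 and 5.77 on the EP300 arrays, against 5.55, 5.56 and 5.63 on the control arrays. The control values lay inside the EP300 range, and the difference of 0.11 ± 0.22 SE was 0.00394 without EP300 replicate 2 and 0.26 without EP300 replicate 1. MXD3 is a family member linked to S phase in proliferating cells. It read 6.58, 6.71 and 6.83 on the EP300 arrays, against 7.02, 6.52 and 6.61 on the control arrays, with the EP300 range inside that of the control arrays and a difference of -0.01 ± 0.22 SE (-0.11 without control replicate 2 and 0.14 without control replicate 1).

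MNT, the broadly expressed repressor that opposes MYC in cycling cells, read 5.70, 6.10 and 5.78 on the EP300 arrays, against 5.83, 6.17 and 5.79 on the control arrays. The ranges overlapped for most of their length, and the difference was -0.07 ± 0.22 SE (-0.19 without EP300 replicate 2 and 0.05 without control replicate 2). RefSeq promoter windows were listed for 9 of the 10 genes, MYC not among them, and of the measured genes MNT and MLX had an E-box there. Their sites are shown with 12 bases on each side, because the network's dimers bind this motif (RefSeq, GRCh38.p14, E-box in capitals, MNT on the minus strand and MLX on the plus strand).
MNT, chr17:2401236-2401265: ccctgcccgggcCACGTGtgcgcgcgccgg
MLX, chr17:42567038-42567067: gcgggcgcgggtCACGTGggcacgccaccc
The E-box began 193 bases upstream of the MNT start and 50 bases upstream of the MLX start. For neither gene were the arrays separated by group.

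MGA had the second largest difference of the members. It encodes a large protein with a T-box beside its MAX-binding domain and serves as the scaffold of the Polycomb complex PRC1.6. It read 3.75, 4.01 and 4.27 on the EP300 arrays, against 4.04, 4.91 and 5.39 on the control arrays. The lowest control array lay within the EP300 range, while the other control arrays lay above it. The means were 4.01 ± 0.26 in EP300 cultures and 4.78 ± 0.69 in control cultures (SD, n = 3 each), a difference of -0.77 ± 0.33 SE, which was -0.47 without control replicate 3. All 3 EP300 values and that of control replicate 1 lay below the median of the arrays, where the background is not known, so no fold is printed.

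MYC itself was among the brighter probe sets, with all values above the upper quartile of the arrays. It read 12.35, 12.65 and 12.28 on the EP300 arrays, against 12.47, 12.17 and 11.75 on the control arrays. The groups overlapped, the lowest value being that of control replicate 3 and the highest that of EP300 replicate 2. The difference was 0.29 ± 0.25 SE, and it was 0.10 without control replicate 3, 0.18 without EP300 replicate 2 and 0.47 without control replicate 1. MAX, the shared partner, read 6.38, 6.85 and 6.13 on the EP300 arrays, against 6.36, 6.49 and 5.92 on the control arrays. These ranges overlapped as well. The difference of 0.20 ± 0.26 SE was -0.00499 without EP300 replicate 2, 0.03 without control replicate 3, 0.31 without control replicate 2 and 0.36 without EP300 replicate 3.

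In the MLX branch, which answers to glucose-derived metabolites, MLX read 5.65, 5.35 and 5.75 on the EP300 arrays, against 5.59, 5.48 and 5.18 on the control arrays. The groups overlapped, and the difference of 0.17 ± 0.22 SE was 0.05 without control replicate 3 and 0.28 without EP300 replicate 2. An MLX pseudogene is annotated in RefSeq, and signal shared with it was not set apart. MLXIP, the partner that moves to the nucleus when glucose is taken up, read 5.16, 4.56 and 4.90 on the EP300 arrays, against 4.87, 5.70 and 4.23 on the control arrays. The EP300 range lay inside that of the control arrays. The difference of -0.06 ± 0.35 SE took either sign when 1 array was left out, from -0.41 without control replicate 3 to 0.32 without control replicate 2.

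**Figure D1:**
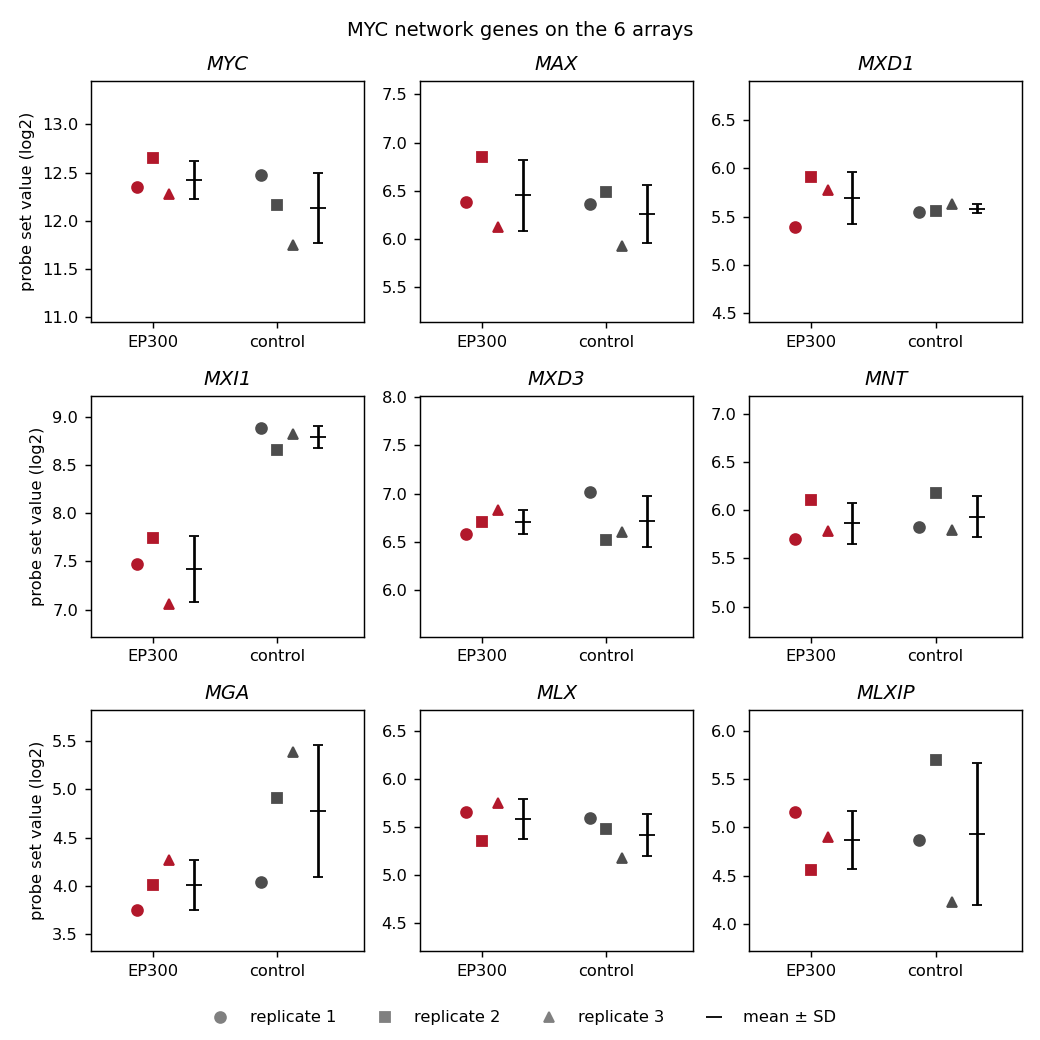
Log2 probe set values of the 9 measured MYC network genes, with the 3 EP300 arrays (red) on the left and the 3 control arrays (grey) on the right of each panel; symbols mark replicates, and black bars give the mean and SD. All panels span the same number of log2 units around different centres; the groups are separated for MXI1 (7.05 to 7.74 on EP300 arrays, 8.66 to 8.88 on control arrays) and overlap for the other genes.

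The members thus did not share a direction, with 4 higher and 5 lower in EP300 cultures and a median difference of -0.01, where 50.2% of all probe sets were higher and 49.8% lower with a median of 0.000982. MXI1 and MGA lay below the 5th percentile of all differences (-0.51), and the other 7 lay between it and the 95th percentile (0.52). The spread between cultures was uneven. The pooled SD of MLXIP (0.56) and MGA (0.52) exceeded that of 92.6% and 89.0% of all probe sets. That of MXI1 was 0.26, close to the median of 0.31 over all probe sets, and MXD1, MXD3, MLX and MNT had a pooled SD of 0.19 to 0.21. The limma fit over the whole table called 0 of 21448 probe sets at an adjusted p of 0.05 (0%), so 0 of the 9 members, while 6.52% of all probe sets had an unadjusted p below 0.05, 3.45% in the higher and 3.07% in the lower direction. With a variance trend and robust estimation limma called 4 probe sets (0.0186%), again with 0 members among them.

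**Figure D2:**
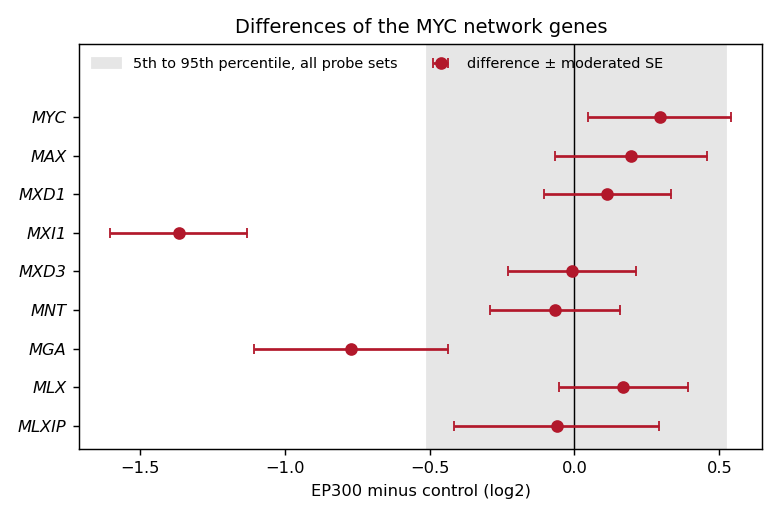
EP300 minus control differences on the log2 scale (points) with limma's moderated SE (bars) for the 9 measured genes. The grey band spans the 5th to the 95th percentile of the differences of all probe sets, -0.51 to 0.52; MXI1 at -1.37 and MGA at -0.77 lie outside it.

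The genes whose pattern over the 6 arrays was most like that of MXI1 were BGN, SCD, GYS1, PYM1 and NCAM1. Likeness was measured as the root-mean-square distance between the values of 2 probe sets, each centred on its own mean over the 6 arrays, among 17257 named probe sets of protein-coding genes. BGN, the gene of the proteoglycan biglycan, was closest at 0.156 and SCD, encoding stearoyl-CoA desaturase, followed at 0.170. GYS1, which encodes the glycogen synthase of muscle and other tissues, stood at 0.181. The distances of PYM1, a partner of the exon junction complex, and NCAM1, a neural cell adhesion molecule, were 0.215 and 0.218. The median distance over all these probe sets was 0.768.

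Because MXI1 was picked for its difference between the groups, genes with a like pattern had to differ too, and their differences are no further result. The distance also used the order of the arrays within a group. Likeness to MXI1 in that order was thus favoured by the choice and is no further result either. GYS1 read 10.97, 11.30 and 10.57 on the EP300 arrays, against 11.95, 12.03 and 12.01 on the control arrays. As for MXI1, EP300 replicate 3 was the lowest array and EP300 replicate 2 the highest of the EP300 arrays. NCAM1 read 8.52, 8.78 and 8.33 on the EP300 arrays, against 9.63, 9.40 and 9.49 on the control arrays, with the same order among the EP300 arrays. BGN read 9.13, 8.92 and 8.29 on the EP300 arrays, against 10.26, 10.01 and 10.29 on the control arrays. SCD read 12.57, 12.53 and 12.17 on the EP300 arrays, against 13.55, 13.55 and 13.57 on the control arrays. In both of these genes EP300 replicate 1 was the highest EP300 array, unlike in MXI1. PYM1 differed by -0.97 ± 0.24 SE, at levels of 3.72 to 4.46 on the EP300 arrays and 4.89 to 5.19 on the control arrays.

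**Figure D3:**
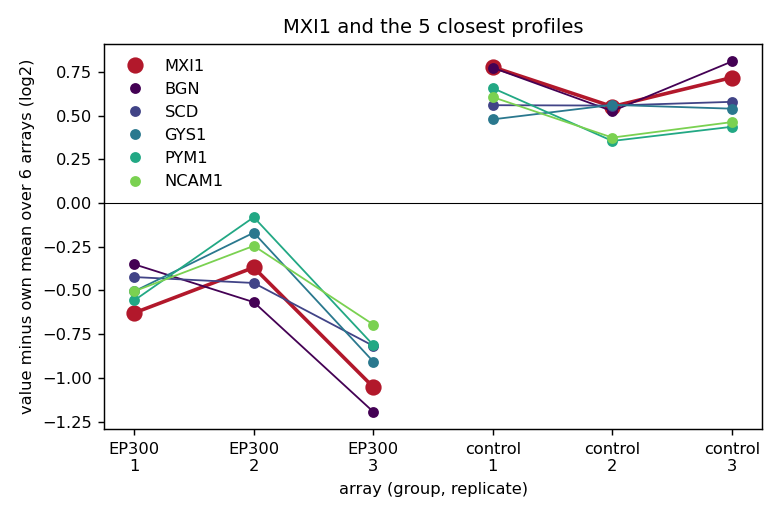
Values of MXI1 (red) and of the 5 probe sets with the closest pattern, each minus its own mean over the 6 arrays (log2), for the 3 EP300 arrays on the left and the 3 control arrays on the right. Lines only guide the eye within a group. EP300 replicate 3 is the lowest array for all 6 genes, a likeness that the choice by distance favoured.

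Genes around the network were grouped into 11 lists, with 189 distinct measured genes. By limma 0 of the 189 passed at an adjusted p of 0.05 over all probe sets, the lowest adjusted p being 0.50. At an unadjusted p below 0.05 there were 5 higher and 5 lower, which is 5.29% of the 189, against 6.52% of all probe sets. List medians ran from -0.09 to 0.11 (0.000982 over all probe sets). Listed genes without a named probe set were not analysed here. From each list the 2 genes with the smallest p are named.

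The SIN3 and HDAC corepressors are those that MXI1 and the MXD proteins recruit. Of 17 measured genes 8 were higher and 9 lower (median -0.04), and by limma 0 passed. SIN3A, the scaffold that binds the repression domain of the MXD proteins, read 5.76, 5.76 and 5.46 on the EP300 arrays, against 6.09, 6.08 and 6.41 on the control arrays. Each EP300 array was below each control array, and the difference was -0.53 ± 0.22 SE (limma adjusted p = 0.748). It was the 1 gene of the list at an unadjusted p below 0.05 in the lower direction, where 3.07% of all probe sets were counted. ARID4B, a further subunit of the SIN3 complex, differed by 0.61 ± 0.30 SE with overlapping groups (limma adjusted p = 0.791), and by 0.38 without control replicate 1.

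Among 14 other factors that bind E-boxes, 6 were higher and 8 lower (median -0.04). TFAP4 encodes AP4, a helix-loop-helix factor known as a direct target of MYC. It read 5.68, 5.91 and 5.50 on the EP300 arrays, against 4.45, 4.51 and 4.81 on the control arrays. Every EP300 array was above every control array, a difference of 1.11 ± 0.22 SE. Control replicate 1 was below the array medians, and TFAP4 did not pass (limma adjusted p = 0.500, 0.310 to 0.866 over the alternative settings). MYCN, the MYC paralog of neural tissue, stayed below the array medians on every array (3.30, 4.11 and 3.48 with EP300, 3.03, 2.68 and 3.33 in control). Its difference of 0.62 ± 0.28 SE was 0.37 without EP300 replicate 2 (limma adjusted p = 0.768).

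Of 24 genes of MYC protein turnover, 16 were higher and 8 lower (median 0.11). SKP2 encodes an F-box protein that ubiquitinates MYC and also degrades the cell cycle inhibitor p27. It read 7.89, 8.11 and 7.19 on the EP300 arrays, against 8.61, 8.99 and 8.84 on the control arrays. The groups were separated, and SKP2 was 2.12-fold lower with the EP300 vector (-1.08 ± 0.27 SE, limma adjusted p = 0.735). Its lowest array was EP300 replicate 3, as for MXI1. USP37, a deubiquitinase that stabilises MYC, was higher by 0.61 ± 0.25 SE (limma adjusted p = 0.751) and by 0.39 without EP300 replicate 3.

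The MYC cofactors had a median of 0.08 over 19 genes, 10 higher and 9 lower. MYCBP2, which encodes a large ubiquitin ligase first found as a MYC-binding protein, read 5.86, 5.69 and 5.99 on the EP300 arrays, against 5.09, 3.98 and 5.52 on the control arrays. Control replicate 2 stood far below the other arrays, and the difference of 0.98 ± 0.36 SE was 0.54 without it (limma adjusted p = 0.746). SMARCC1, a subunit of the SWI/SNF remodelling complex, differed by 0.54 ± 0.29 SE with overlapping groups and by 0.28 without control replicate 1 (limma adjusted p = 0.796).

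Targets that MYC activates went both ways. Of 25 ribosome biogenesis genes 12 were higher and 13 lower (median -0.07), and of 31 metabolism and growth genes 19 were higher and 12 lower (median 0.06). The metabolism and growth median was -0.05 without control replicate 3 and 0.10 without control replicate 1. The ribosome biogenesis median was -0.08 without control replicate 1, 0.05 without control replicate 2 and 0.03 without EP300 replicate 1. In the first list NIP7, a factor of ribosome assembly, read 7.14, 7.30 and 7.06 on the EP300 arrays, against 7.61, 7.75 and 7.52 on the control arrays (-0.46 ± 0.20 SE, limma adjusted p = 0.765). POLR1B, the second largest subunit of RNA polymerase I, differed by -0.76 ± 0.28 SE at levels below the array medians (limma adjusted p = 0.746). In the second list HSPE1, the mitochondrial co-chaperonin, read 12.30, 12.28 and 12.76 on the EP300 arrays, against 11.62, 11.74 and 11.81 on the control arrays (0.72 ± 0.22 SE, limma adjusted p = 0.735). The transferrin receptor gene TFRC, a target of MYC in iron uptake, was also higher on each EP300 array than on each control array (0.67 ± 0.24 SE, limma adjusted p = 0.746). By limma 0 genes of either list passed; at an unadjusted p below 0.05 there were 0 higher and 2 lower in the first, and 2 higher and 1 lower in the second.

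Genes that MYC represses had a median of 0.08 over 12 measured genes, 6 higher and 6 lower. CDKN1A, which encodes the cell cycle inhibitor p21, read 7.10, 7.37 and 7.32 on the EP300 arrays, against 6.78, 6.88 and 7.00 on the control arrays. CDKN2B, which encodes p15, read 6.09, 5.87 and 5.97 on the EP300 arrays, against 6.39, 6.26 and 6.31 on the control arrays. Both genes were separated by group, in opposite directions, with differences of 0.38 ± 0.20 SE and -0.34 ± 0.20 SE (limma adjusted p = 0.803 and 0.820). Of the 12 genes 3 were separated in the higher and 1 in the lower direction, against 6.3% and 5.91% of all probe sets. With 12 genes nothing is read from that count.

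The partners of MGA in PRC1.6 had a median of 0.05 over 12 genes, 7 higher and 5 lower, with 0 at an unadjusted p below 0.05. The differences of the complex's E2F subunit gene E2F6 (0.51 ± 0.35 SE) and of L3MBTL2 (-0.30 ± 0.26 SE), a chromatin reader in the complex, had limma adjusted p of 0.844 and 0.889. E2F6 was at 0.24 without EP300 replicate 3 and at 0.95 without EP300 replicate 2, and L3MBTL2 at -0.06 without EP300 replicate 1. The germline genes that this complex keeps silent had a median of 0.06 over 15 genes, 9 higher and 6 lower. By their means over the arrays, all 15 lay below the array medians and 9 of them below the lower quartiles, where the background is unknown. SMC1B, a meiotic cohesin gene, and MAEL, a gene of the piRNA pathway, differed by 0.40 ± 0.23 SE and 0.43 ± 0.26 SE (limma adjusted p = 0.813 and 0.824). MAEL was at 0.19 without EP300 replicate 3.

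The glucose-response targets of MLX and MLXIP had a median of -0.09 over 11 genes, 5 higher and 6 lower. By limma 0 passed, 0 had an unadjusted p below 0.05 and 0 were separated by group. Of all probe sets 12.2% were separated, so with 11 genes nothing is read from that count. PFKFB3, which makes an activator of glycolysis, differed by -0.31 ± 0.22 SE and ACACA, the acetyl-CoA carboxylase gene of fatty acid synthesis, by -0.25 ± 0.24 SE (limma adjusted p = 0.858 and 0.897). ACACA was at -0.05 without EP300 replicate 1.

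The factors known to induce MXI1 were looked at through 10 genes of HIF and FOXO factors and the enzymes that control HIF. Of these 8 were lower and 2 higher (median -0.08), where 49.8% of all probe sets were lower. The count pools the factors with genes that control HIF, so it gives no direction for the inducers alone. VHL (-0.19) and HIF1AN (-0.08) were among the lower, and EGLN1 (0.16) and EGLN3 (0.21) were the 2 higher. For 2 of the 10 genes the mean over the arrays lay below the lower quartiles. HIF1A and FOXO3, named outside the rule after their values were seen, differed by -0.01 ± 0.19 SE and -0.08 ± 0.24 SE, with overlapping groups. HIF1A read 16.4157 on several arrays of both groups (SD 0.007 in EP300 and 0.014 in control cultures). The bright probe set of VIM was likewise tied, at 18.5974 on every array. Such ties may hide a difference, so HIF1A is not read as unchanged. ARNT, the shared partner of the HIF alpha subunits, read 7.21, 5.83 and 6.35 on the EP300 arrays, against 7.40, 7.09 and 7.08 on the control arrays. EP300 replicate 1 lay within the control range, and the difference of -0.73 ± 0.33 SE was -0.41 without EP300 replicate 2 and -1.10 without EP300 replicate 1 (limma adjusted p = 0.770). EPAS1, which encodes HIF-2 alpha, read 9.87, 9.59 and 9.53 on the EP300 arrays, against 10.41, 9.86 and 10.10 on the control arrays, and the groups overlapped at their edges (-0.46 ± 0.23 SE, limma adjusted p = 0.791). By limma 0 of the 10 passed and 0 had an unadjusted p below 0.05.

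**Figure D4:**
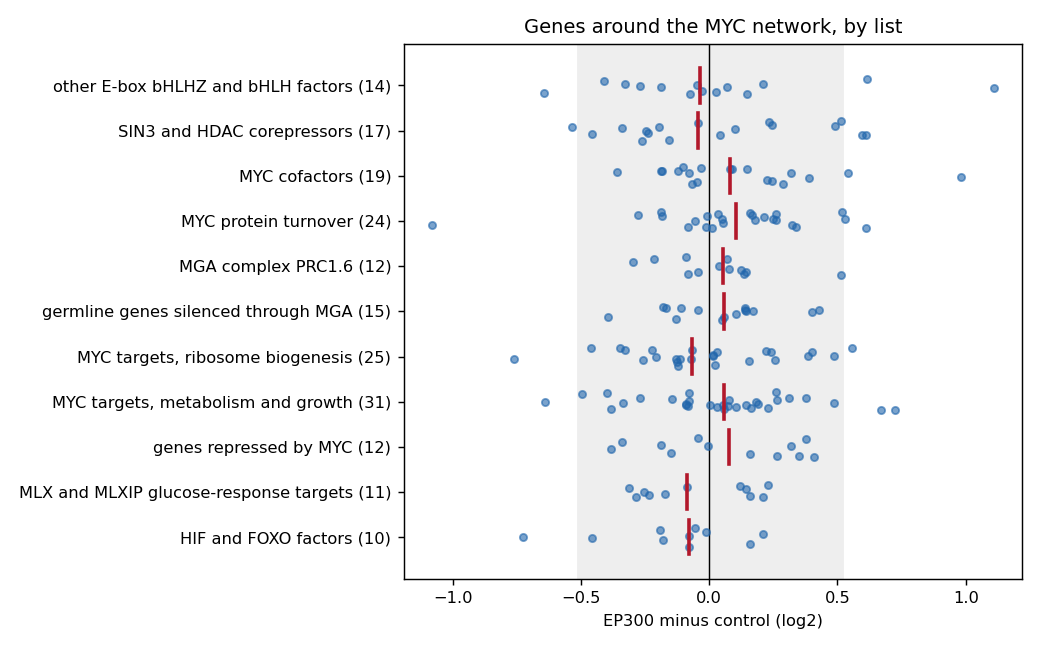
EP300 minus control differences (log2) of the measured genes of 11 lists around the MYC network, 1 point per probe set, with the number of probe sets in brackets and the list median as a red bar. The grey band spans the 5th to the 95th percentile over all probe sets (-0.51 to 0.52); all medians lie between -0.09 and 0.11, with TFAP4 (1.11) furthest to the right and SKP2 (-1.08) furthest to the left.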

How the data were processed

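Total RNA of 6 HS578T cultures was hybridised to 1 Affymetrix array each, per the labels' protocols (Qiagen RNeasy extraction, GeneChip WT PLUS labelling). The authors' deposited table holds 1 value for each of 21448 probe sets and array, taken as log2 because it runs from 1.79 to 19.93. Partek 6.6 was used, per the submitters' processing notes; background correction, normalization, summarisation and build: not given in the sources used here. Array medians differed little and no gene centring was seen. Detection calls were not used here. Precision is limited by the number of arrays.

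Gene symbols came from the platform annotation (1 for 17709, several for 0, none for 3739). EP300 minus control was fitted over all probe sets with lmFit and eBayes (limma 3.58.1, R 4.3.3), without filter or covariate, with Benjamini-Hochberg adjustment at 0.05. The fit was run on simulated normal values with variances drawn from limma's own prior, which cannot test those assumptions. The members, lists and rules were chosen with earlier results of these data known. Named by rule were all members, the 2 genes of smallest p per list and the 5 closest to MXI1. Genes named outside this rule were chosen after their values were seen. Alternatives were quantile normalization, median centring, a level filter, 1 probe set per gene, a variance trend, a replicate block and leaving out each array. The p-values measure the spread between cultures.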

Additional observations from a re-analysis of the deposited data

How the results depend on the processing

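The MXI1 difference (-1.37) was -1.40 with quantile normalization and -1.36 with median centring. The level filter, 1 probe set per gene, the variance trend and the replicate block cannot change the difference of a probe set. When 1 array was left out, the MXI1 difference lay between -1.52 (without EP300 replicate 2) and -1.18 (without EP300 replicate 3). The labels give both groups replicates 1 to 3. Deviations of same-numbered arrays correlated at -0.00153, -0.00528 and -0.00893, so no shared replicate effect was seen. Whether same-numbered cultures were handled together is not stated. With the replicate block, which leaves the differences as they are, limma called 0 probe sets and 1295 had an unadjusted p below 0.05, against 1399 without it. The count called was 4 with a variance trend and robust estimation and 0 in the other 11 settings. The count at an unadjusted p below 0.05 was 848 under the filter on levels above the median, which left fewer to test, and 1225 to 1383 without 1 array. Over 8 other members, 7 of 95 alternative values changed sign (MAX, MLXIP, MNT and MXD3), each on leaving out 1 array. The 95 include the settings that cannot change a difference. Of 131 list medians under alternatives, 12 changed sign, in 6 lists: other E-box factors (-0.16 to 0.03), corepressors (-0.14 to 0.05), MYC cofactors (-0.02 to 0.18), PRC1.6 (-0.04 to 0.09), ribosome biogenesis (-0.08 to 0.05) and metabolism and growth targets (-0.05 to 0.10). The 22 list genes named for the smallest p in these data kept their direction and did not pass in all 259 alternative values (limma adjusted p from 0.310 to 0.986). Many of the 259 repeat the main difference, as those settings cannot change it, so the kept direction says little for them. Signal over background is unknown, which limits what MGA and other dim genes show.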
